A study of Mus musculus with 2 samples.

Results

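The 42 genes described here encode developmental homeodomain transcription factors outside the Hox clusters. They were taken as a list of names by gene family, chosen with earlier results of these data known, from 12 subfamilies (DLX, IRX, the sine oculis-related genes Six2, Six4, Six5 and Six6, NKX, LHX, the other LIM-homeodomain genes Lmx1a, Lmx1b, Isl1 and Isl2, MEIS, PBX, PITX, MSX, EN and TGIF). The mouse gene table held all 42, among 21485 protein-coding genes with a usable transcription start site (TSS). The assay was ChIP-seq, the sequencing of DNA precipitated with an antibody, here against NANOG, itself a homeodomain protein and a core pluripotency factor. The cells were E14TG2a.4 embryonic stem cells of mouse strain 129/Ola, labelled male and of age 3.5 days. There was 1 group with 2 biological replicates of this single line, so no conditions were compared, and no control library was used here. A peak was assigned to a gene if its summit lay in the gene body or within 50 kb of its TSS, in the authors' optimal set of 15891 peaks on genome build mm10, thresholded by the irreproducible discovery rate (IDR). The authors' signal value, an enrichment statistic of unstated scale that runs from 7.30 to 675.8 with a median of 40.2 over the optimal set, was used only to describe and rank peaks. The depth of each library is unknown. RNA was not measured, so the expression of these genes and of stem cell markers could not be checked.

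Homeodomain proteins bind DNA through a helix-turn-helix fold, most often at short sites with the core TAAT. Members of the list specify regions and cell types of the embryo, such as forebrain interneurons (DLX, LHX), heart chambers (IRX4, NKX2-5), kidney progenitors (SIX2), and the midbrain and hindbrain (EN, LMX1B). Proteins of the TALE class, which have a longer homeodomain loop, include IRX, the HOX cofactors MEIS and PBX, and TGIF1. In embryonic stem cells most lineage genes of this kind are known to be silent or low and to carry polycomb marks.

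NANOG peaks lay near 24 of the 42 genes, 57.1% (exact 95% Clopper-Pearson interval 41.0 to 72.3, counting error only), against 48.4% of all protein-coding genes measured the same way. The interval holds the background share, so a difference was not detectable with this number of genes. In each of the 12 peak sets or rules compared, the share of homeobox genes was above that of all genes, and in each the interval held the background. These rules reuse the same genes and mostly the same peaks. The gap was widest when each summit counted only for the gene with the nearest TSS, at 18 of 42 (42.9%, 27.7 to 59.0) against 27.9%. In the stricter conservative set it was 18 of 42 against 33.7% of all genes. With as many top-ranked regions as the optimal set, replicate 1 alone and replicate 2 alone each gave 24 of 42 genes (57.1%), against 48.5% and 54.0% of all genes. Of the 42 genes, 18 had a top region in each list, whether or not at the same site, against 38.4% of all genes. They are those of the conservative set with Nkx2-2 in place of Nkx6-2. The optimal peak of Nkx2-2 itself overlapped a top region of replicate 1 only. A narrower window of 10 kb around the TSS, or the gene body, left 12 of 42 genes (28.6%) against 25.4%. A window of 100 kb gave 34 of 42 (81.0%, 65.9 to 91.4) against 67.2%. The authors' mm9 series-level peaks lay near 21 of 42 genes, against 45.2% of the 22225 protein-coding genes of that annotation.

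**Figure D1:**
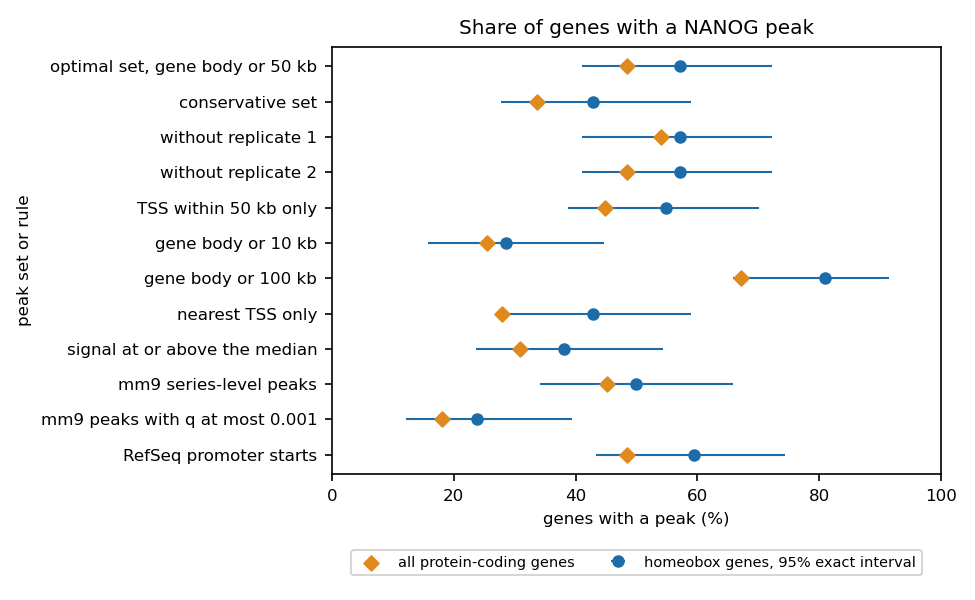
Share of genes with a NANOG peak (x axis, percent) under each peak set or rule (y axis), for the 42 homeobox genes with exact 95% intervals and for all protein-coding genes. The homeobox share is above the background in all 12 and every interval holds the background, for example 57.1% against 48.4% for the optimal set.

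The strongest homeobox sites belonged to 8 genes of 8 subfamilies, whose highest peaks had signals above 100. Irx4, a ventricular gene of the heart, had the highest, with signal 282.8 (mm10 chromosome 13, 73259635 to 73259923), rank 216 of the 15891 optimal peaks. Lmx1b, a factor of dorsal limb and midbrain dopamine neurons, had signal 212.0, Tgif1, a TALE repressor that acts with SMAD proteins, 210.2, and Msx2, a factor of skull and tooth development, 207.6. Pbx3 followed with 148.9, En2 with 142.5, Lhx6 with 125.0 and Nkx2-1 with 122.7. Counting all their sites, 11 distinct peaks of homeobox genes had a signal above 100. They were 22.9% of the 48 distinct peaks, and 13.9% of all optimal peaks had such signals. No interval was computed for this share, and Nkx2-1, En2 and Tgif1 each gave more than 1 of the 11. All 11 were among the top regions of each replicate. Over the whole optimal set 99.7% of peaks with such signals were.

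Sequence could be read on mm9 only, where peaks are wider regions (median 853 bp) with no summit. For each of these 8 genes, the 101 bp around the midpoint of its most enriched peak in the authors' series-level mm9 list is shown, on the forward strand, because these genes have the highest signals of the group. Capitals mark matches, on either strand, to any of the searched motifs: the octamer ATGCAAAT, the SOX sites ACAAAG and ACAATG, the homeodomain core TAAT, the NANOG-type site TAATGG, the MEIS and TGIF site TGACAG, the PBX-type site TGATTG and the nuclear receptor site AAGGTCA.
Irx4, chr13:73397185-73397285: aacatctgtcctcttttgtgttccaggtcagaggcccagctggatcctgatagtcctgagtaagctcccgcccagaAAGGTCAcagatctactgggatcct
Lmx1b, chr2:33436378-33436478: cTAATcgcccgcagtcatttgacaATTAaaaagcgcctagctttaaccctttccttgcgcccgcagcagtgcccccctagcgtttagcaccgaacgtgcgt
Tgif1, chr17:71250173-71250273: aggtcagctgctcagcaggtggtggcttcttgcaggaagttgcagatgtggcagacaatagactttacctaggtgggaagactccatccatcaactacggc
Msx2, chr13:53556696-53556796: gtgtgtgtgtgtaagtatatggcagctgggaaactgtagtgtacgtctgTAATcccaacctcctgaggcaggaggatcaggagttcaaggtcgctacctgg
Pbx3, chr2:34255299-34255399: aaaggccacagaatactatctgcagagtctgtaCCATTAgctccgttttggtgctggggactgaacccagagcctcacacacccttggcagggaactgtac
En2, chr5:28525704-28525804: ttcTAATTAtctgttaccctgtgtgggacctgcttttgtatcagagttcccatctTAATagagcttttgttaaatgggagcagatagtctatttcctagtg
Lhx6, chr2:35944872-35944972: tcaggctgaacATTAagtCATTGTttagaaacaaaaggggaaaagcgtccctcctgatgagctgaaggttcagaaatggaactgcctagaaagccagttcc
Nkx2-1, chr12:57621909-57622009: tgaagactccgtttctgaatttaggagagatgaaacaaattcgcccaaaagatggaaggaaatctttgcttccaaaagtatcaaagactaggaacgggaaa
The Tgif1 window is that of its upstream site, whose mm9 enrichment was 24.67, while the highest mm10 signal of Tgif1 was downstream. The mm9 peak 25.1 kb downstream, of slightly lower enrichment, held 2 PBX-type sites, a nuclear receptor site and a TAAT core in its window. The Irx4 window held a nuclear receptor site and no TAAT core, and that of Pbx3 held a NANOG-type site. In Lhx6 a SOX site and a core lay close together, and the En2 window held 3 cores, of which 2 overlap. The windows shown for Tgif1 and Nkx2-1 held no match to any of the 7 motifs. The window of Irx4 lay 0.710 kb upstream of its mm9 gene, those of Lmx1b and Lhx6 in introns and the others outside their genes.

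In the authors' mm9 replicate lists, these 8 peaks, chosen for their high values, were found in each replicate. Of the 32 distinct series-level peaks of the group, 32 overlapped a replicate 1 peak and 22 a replicate 2 peak. Over all series-level peaks, 99.6% overlapped a replicate 1 peak and 46.9% a replicate 2 peak. The enrichment of the Irx4 peak was 59.2 in replicate 1 and 32.95 in replicate 2, and that of the Lmx1b peak 60.5 and 22.45. Msx2 had 51.06 and 22.92, and the Tgif1 peak had 49.44 and 20.06. The other 4 ran from 31.55 to 38.38 in replicate 1 and from 12.89 to 16.72 in replicate 2. The values were lower in replicate 2 at all 8 sites, and this difference was not tested. The whole replicate 2 list was also shorter, with 6618 peaks against 22082 in that of replicate 1.

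Irx4 carried the only peak within 1 kb of the 5' end of a homeobox gene model. Its summit lay 0.200 kb downstream of the 5' end of the gene model and 0.708 kb upstream of the start in the RefSeq promoter table, and it ranked 280 in the replicate 1 list and 168 in that of replicate 2, each of 300000 regions. For Irx5, a gene of heart and limb development, the higher peak had signal 70.9 and lay 45.1 kb downstream (ranks 4231 and 2966). A weaker one of 23.0 lay 4.53 kb downstream and was ranked 95999 in replicate 1 but 4693 in replicate 2. Irx1, Irx2, Irx3 and Irx6 had no peak by the rule, which left 2 of 6 IRX genes. Irx2 missed the window narrowly, with a peak of signal 25.8 at 51.6 kb, and counts as having one when the RefSeq promoter start is used. At 100 kb, 5 of the 6 IRX genes had a peak.

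Each DLX gene had at most 1 peak, and only that of Dlx6 exceeded the median signal of the optimal set. The single Dlx6 peak, signal 83.9, lay 37.8 kb upstream (chromosome 6, 6825323 to 6825686), with ranks 2678 and 3531 in the replicates. Dlx1 and Dlx2, neighbours transcribed towards each other in interneuron precursors, shared 1 peak of signal 35.2, which lay 3.80 kb upstream of Dlx2. This shared peak was ranked 8285 in replicate 1 and only 190836 in replicate 2. The peak of Dlx3, a factor of skin and placenta, had signal 23.7 at 35.1 kb upstream, with Itga3 the nearer gene, and was ranked 12192 and 151721. Thus 4 of 6 DLX genes (66.7%, 22.3 to 95.7) had a peak, against 48.4% of all genes. They had 3 distinct peaks, of which 1 was among the top regions of both replicates. In the conservative set, only Dlx6 kept a peak. With replicate 2 alone, 2 DLX genes had a top region, namely Dlx6 and Dlx4. Dlx4 is not among the 4 with an optimal peak, and its region had signal 9.2 and rank 15291.

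NKX genes gave 3 of 4. Nkx2-1, which specifies thyroid, lung and ventral forebrain, had a pair of peaks 15.5 and 16.3 kb downstream, with signals 122.7 and 118.4 (chromosome 12, 56521256 to 56521494 and 56520413 to 56520722). Their ranks were 2176 and 1630 in replicate 1, and 798 and 1421 in replicate 2. Nkx2-2, a gene of the ventral neural tube and the endocrine pancreas, had signal 28.5 at 5.64 kb inside its gene model, which is 3.39 kb upstream of the RefSeq promoter start. Its ranks were 12497 and 41830. Nkx6-2, an oligodendrocyte factor, had signal 27.3 at 3.12 kb inside the gene, with ranks 17101 and 13531. Nkx2-5, the cardiac member, had no peak within 100 kb, the nearest lying at 103 kb.

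LHX was the subfamily with the smallest share, 1 of 6 (16.7%, 0.421 to 64.1), an interval too wide to set it apart from the other subfamilies or from the 48.4% of all genes. The gene with peaks was Lhx6, a factor of cortical interneurons, which had 3 inside its body. The highest, signal 125.0, lay 16.6 kb from the TSS (chromosome 2, 36089274 to 36089496) and ranked 1548 in replicate 1 and 1521 in replicate 2. The next, 33.7 at 15.7 kb, ranked 8953 in replicate 1 and was absent from the replicate 2 list. The lowest, 22.1, lay 1.18 kb inside the gene and 0.283 kb upstream of another RefSeq start of Lhx6, and was a top region of neither replicate. Lhx3, Lhx4, Lhx5, Lhx8 and Lhx9 had none. Without replicate 1 the LHX count was 3, with Lhx3 and Lhx4 added by regions ranked 15456 and 9689 in the replicate 2 list.

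Of the other LIM-homeodomain genes, Lmx1b had 4 peaks and Isl2 had 2. The strongest Lmx1b peak (chromosome 2, 33580654 to 33580984, signal 212.0) lay deep in the gene, 60.4 kb from the TSS, and ranked 472 and 601 in the replicates. A second intragenic peak beside it had signal 43.3, and others of 40.7 and 44.8 lay 3.59 kb inside the gene and 21.8 kb upstream. All 4 were in the conservative set, and the last was the only one outside the top 15891 regions of replicate 2, at rank 16339. Isl2, a motor neuron factor, had peaks of signal 48.3 and 21.7, but the first lay inside Etfa and the second inside Scaper. Isl1, a factor of motor neurons, heart progenitors and pancreas, was the most remote of all members, with the nearest summit 402 kb upstream. Lmx1a had its nearest optimal summit 190 kb upstream.

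Both engrailed genes had peaks, all 4 of them downstream and among the top regions of each replicate. En2 had signals 142.5, 108.0 and 72.9 at 33.6, 11.0 and 44.4 kb from the TSS, the first at chromosome 5, 28199169 to 28199425. Their ranks were 1263, 1943 and 4373 in replicate 1 and 1103, 2257 and 2288 in replicate 2. The last of them lay inside Cnpy1, the neighbouring gene. En1 had 1 peak of signal 42.2 at 41.8 kb, ranked 8033 and 5269. En1 and En2 mark the border of midbrain and hindbrain.

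Tgif1 stood out by number, with 8 peaks between 47.4 kb upstream and 46.7 kb downstream. It was the only member with 5 or more, and 1 of 42 is no higher than the 2.55% of all protein-coding genes. The strongest had signals 210.2 at 24.7 kb downstream (chromosome 17, 70828639 to 70828930) and 195.8 at 47.4 kb upstream (70900758 to 70901020). They ranked 532 and 715 in replicate 1, and 479 and 441 in replicate 2. Others had 93.5, 57.4, 52.8 and 42.2, and the lowest 21.3 and 11.1. Of the 8, 7 were in the conservative set and 7 had a top region in each replicate. The exception was the peak of 21.3, ranked 25043 and 6417. The peak of 11.1 overlaps that of 93.5, so its support comes from the same regions. The peak of 52.8 lay inside Dlgap1. For all 8, Tgif1 had the nearest TSS, and the next gene start, that of Myl12b, was 137 kb away.

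Among the HOX cofactors, Pbx3 had the highest peak, with signal 148.9 at 27.7 kb upstream (chromosome 2, 34399592 to 34399819, ranks 1049 and 1418), although the start of Mapkap1 was nearer, at 7.04 kb. Pbx2 had signals 42.1 and 26.2, and Notch4 and Rnf5 had the nearer starts, the latter at 0.166 kb. No PBX gene had a peak when only the nearest TSS counted. Meis1, which acts in blood stem cells and limb, had peaks of 35.1 and 23.6 deep in the gene, 106 and 62.0 kb from its TSS. Meis2 had 1 of 36.7 at 7.36 kb inside the gene, ranked 11528 and 5421, and Meis3 had none, so 2 of 3 MEIS genes had a peak. None of the 3 MEIS peaks reached the median signal of the optimal set. When the gene body was not counted, only Meis2 of the MEIS genes kept a peak. The builds differed for Meis1. Its only mm9 series-level peak lay outside the gene, 7.20 kb upstream, with enrichment 5.83 and no overlapping replicate 2 peak. In the optimal set the summit nearest to the Meis1 TSS was 54.7 kb upstream, outside the window.

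Msx1 and Msx2, which respond to BMP signals, both had peaks. The peak of Msx2 with signal 207.6 lay 11.2 kb downstream (chromosome 13, 53461367 to 53461756) and ranked 582 and 426, and one of 26.1 lay inside the gene. Msx1 had 42.0 at 31.6 kb upstream, ranked 8102 and 6800, and 31.7 at 8.35 kb upstream, ranked 12174 and 31447. Six4, a factor of muscle and kidney, had a pair of peaks of 69.7 and 68.7 at 32.0 and 28.0 kb downstream. Mnat1 had the nearest TSS of both. Six2, which maintains nephron progenitors, had 49.5, 26.1 and 16.3. The last 2 overlap each other about 2.36 and 2.56 kb upstream, and the first lay nearer to the eye-field gene Six3. All 3 overlapped a top region of replicate 1 and none overlapped one of replicate 2. The peaks of 26.1 and 16.3 share the same replicate 1 region, ranked 13845. Six5 and Six6 had none, which left 2 of 4 SIX-type genes. Pitx3, a factor of lens and dopamine neurons, had 26.6 and 16.4, neither of them in the conservative set, and Gbf1 and Elovl3 had the nearer starts. Pitx1, a hindlimb factor, had none, which left 1 of 2 PITX genes.

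Of the 24 genes with a peak, 10 had 1, 9 had 2 and 5 had 3 or more. At least 2 peaks were thus found for 14 of the 42 genes, against 22.8% of all protein-coding genes, and at least 3 for 5, against 10.8%. The mean was 1.17 peaks per gene over all 42 and 0.933 over all protein-coding genes. Tgif1 alone gave 8 of the 49 pairs of gene and peak behind the first mean. These counts include 2 peaks that overlap a higher one, in Six2 and Tgif1.

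**Figure D2:**
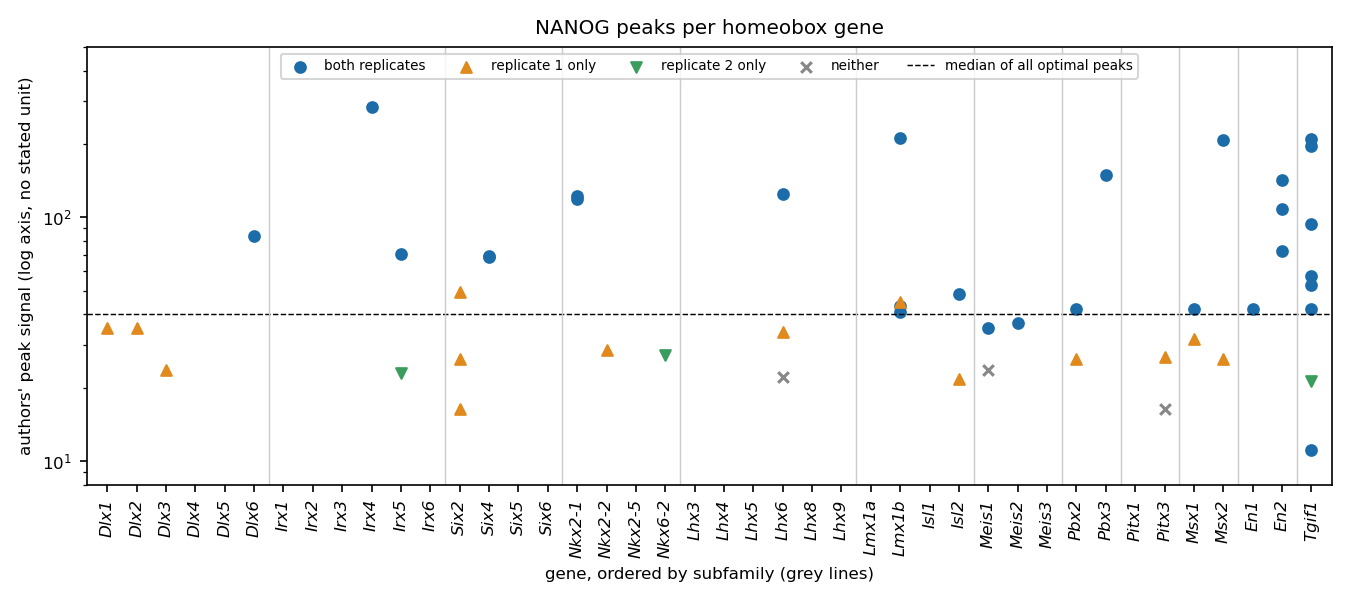
Signal of each NANOG peak of the optimal set (y axis, log scale) by homeobox gene (x axis), with colour and shape for the replicate lists whose top 15891 regions overlap it, and a dashed line at the median signal of all optimal peaks, 40.2. Peaks with support in both replicates lie mostly above the line, 18 genes have no point, and the point shared by Dlx1 and Dlx2 is drawn for each.

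The 18 genes without a peak were of several kinds. In 12 of them (Dlx5, Irx1, Irx2, Irx3, Irx6, Six6, Nkx2-5, Lhx5, Lhx8, Lhx9, Isl1 and Meis3) no top region of either replicate lay in the window. Dlx4, Six5, Lhx3, Lhx4 and Pitx1 had regions in replicate 2 alone, with signals from 9.1 to 10.4 and ranks from 9671 to 15456 of its list. Lmx1a had 1 in replicate 1 alone, of signal 17.4 and rank 15822. For 3 genes the nearest optimal summit lay just outside the window, namely Lhx8 at 51.2 kb (signal 160.7), Irx2 at 51.6 kb and Dlx5 at 56.6 kb (the peak counted for Dlx6). The farthest peaks inside it were those of Tgif1 at 47.4 and 46.7 kb. Dlx4 at 61.3 kb and Irx6 at 69.0 kb came next. Six6, Meis3, Lhx3, Six5 and Irx3 had their nearest summit between 85.3 and 92.8 kb, and that of Lhx3 belonged to a strong peak of signal 220.6. For 8 of the 18 the nearest summit was more than 100 kb away. It lay at 103 kb for Nkx2-5, 105 kb for Pitx1 (signal 102.7), 108 kb for Lhx9, 146 kb for Lhx4, 150 kb for Lhx5, 190 kb for Lmx1a, 241 kb for Irx1 and 402 kb for Isl1.

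Support by the replicates followed peak strength. The 24 genes had 48 distinct peaks, of which 42 (87.5%) overlapped a top region of replicate 1 and 32 (66.7%) one of replicate 2, against 86.3% and 54.6% of all optimal peaks. Both replicates supported 29 (60.4%), replicate 1 alone 13, replicate 2 alone 3 and neither 3, and 50.4% of all optimal peaks had support from both. The conservative set held 31 (64.6%, against 56.7%). Of the 28 peaks at or above the median signal, 92.9% had both replicates, and of the 20 below it 15.0%, against 82.2% and 18.6% of all optimal peaks. Of the 24 genes, 17 had at least 1 peak that both replicates support, a count given without the matching share over all genes with a peak. The optimal set comes from the same 2 replicates, so this support is not independent of it.

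**Figure D3:**
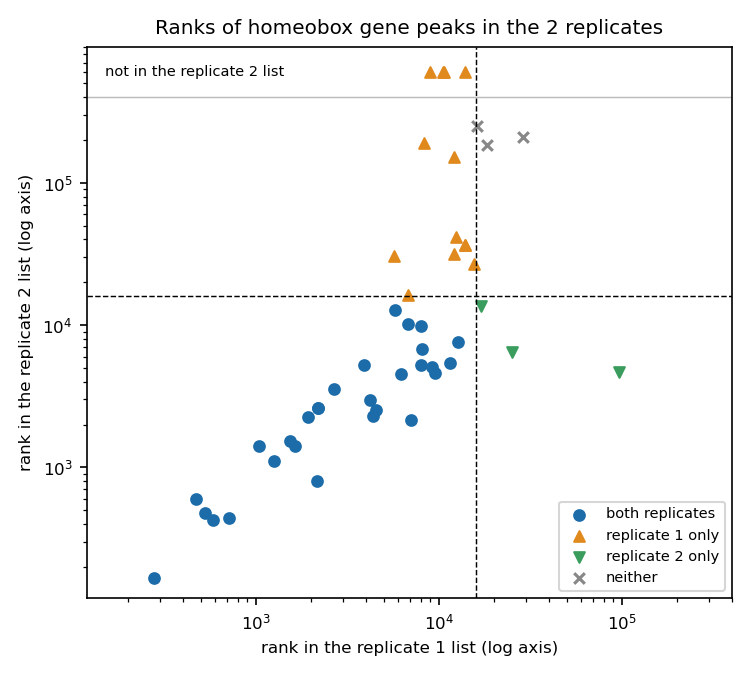
Rank of the best overlapping region in the replicate 1 list (x axis, log scale) and in the replicate 2 list (y axis, log scale) for each distinct peak of the homeobox genes, with dashed lines at rank 15891. Strong peaks lie along the diagonal, most of the others are ranked well only in replicate 1, and the 4 peaks above the grey line are not in the replicate 2 list.

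Most sites were distal. Over the 49 pairs of gene and peak, the median distance from TSS to summit was 19.8 kb, against 29.4 kb for all genes, and 1 pair (2.04%) lay within 1 kb, against 2.73%. Gene bodies held 24.5% of pairs against 35.3%, upstream sequence 34.7% against 41.5%, and downstream sequence 38.8% against 20.5%. Of the 48 peaks, 5 lay inside another protein-coding gene alone. Tgif1 and En2 together gave 6 of the 19 downstream pairs. The homeobox genes were short, with a median length of 8.51 kb against 17.3 kb, and stood apart, with the nearest other protein-coding start at a median of 66.4 kb against 23.6 kb. The gene's own TSS was the nearest to the summit in 75.5% of pairs, against 51.4% over all genes. The part of gene length and spacing in these shares was not tested. The median of the highest signal per gene was 48.9 for the 24 genes and 52.0 for all genes with a peak.

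**Figure D4:**
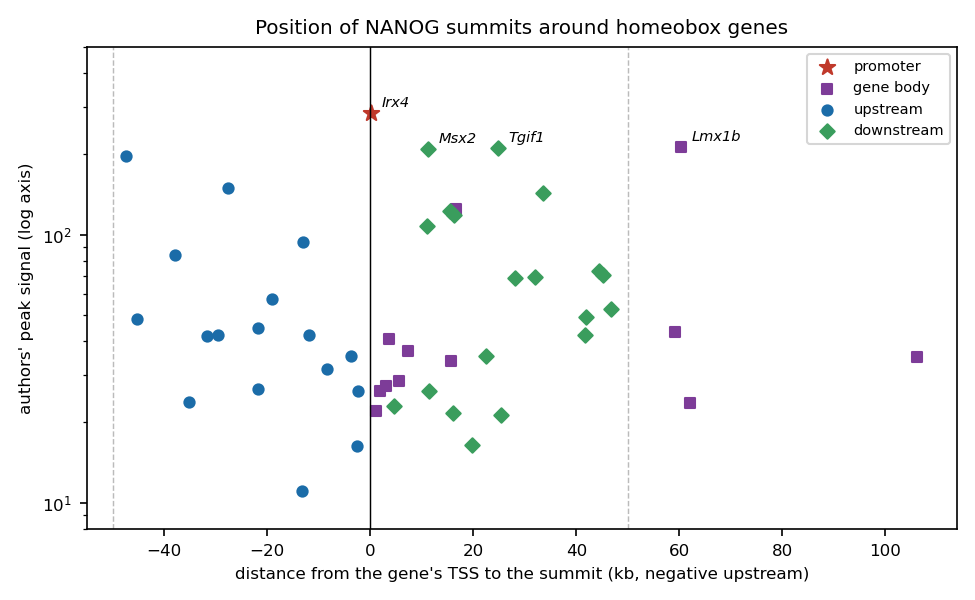
Signal of each peak (y axis, log scale) against the signed distance from the gene's TSS to the summit (x axis, kb, negative upstream), with colour and shape for its location and dashed lines at 50 kb to each side. The peak of Irx4 is the only one within 1 kb of the 5' end of its gene model, drawn as promoter. Beyond 50 kb lie 4 intragenic peaks, the strongest in Lmx1b.

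Over the 32 distinct mm9 series-level peaks of the group, no motif differed from all 13341 such peaks by more than counting error. The TAAT core lay within 50 bp of the midpoint in 16 of 32 (interval 31.9% to 68.1%), against 51.9%. A SOX site was found in 25.0% (11.5 to 43.4) against 35.3%, a NANOG-type site in 12.5% (3.51 to 29.0) against 6.85%, and the octamer in 6.25% (0.766 to 20.8) against 2.35%. The PBX-type site was in 12.5% against 9.29%, the MEIS and TGIF site in 9.38% against 6.73%, and the nuclear receptor site in 12.5% against 6.38%. Each of the 7 intervals held the share of all peaks. The NANOG-type site contains the TAAT core. In the mm9 lists of single replicates, the SOX site was in 33.9% of the peaks of these genes in replicate 1 and 47.8% in replicate 2. The PBX-type site was in 0 of the 23 replicate 2 peaks of these genes, which allows a share of up to 13.0% by the limit of 3 counts that a count of 0 leaves. The MEIS and TGIF site was in 10.2% and 21.7% of the replicate 1 and replicate 2 peaks, the nuclear receptor site in 6.78% and 21.7%, and the octamer in 3.39% and 4.35%. Shares over all peaks of the single replicate lists were not computed, so these replicate values have no background. Motifs are short words, and a match is a description of the sequence only.

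Of 74 non-Hox homeobox genes outside the list, among them Otx2, Gbx2 and Cdx2, 41 had a peak (55.4%, 43.4 to 67.0). Among the 15 of them that belong to the subfamilies described above it was 6 (40.0%, 16.3 to 67.7). Both intervals hold the 48.4% of all protein-coding genes. These lists were chosen with earlier results of these data known.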

How the data were processed

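NANOG ChIP-seq of 2 biological replicates was analysed from peak lists that the authors deposited. Per the deposited file descriptions, the mm10 lists are narrowPeak files and the mm9 lists broadPeak files. The sources used here name no aligner, peak caller or IDR threshold. Deposited mm10 values are a signal, the -log10 of a q-value, an integer score and a summit offset. Deposited mm9 values are an enrichment ratio, a q-value and a p-value as -log10.

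Gene positions came from the GRCm38 table, with strand from RefSeq promoters (17491 genes) or an mm9 annotation (3994). As TSS served the gene model's 5' end, and RefSeq promoter starts were found for 31 of 42 genes. For 16 of these genes the TSS used lay within 100 bp of such a start. Regions were ranked by signal. A replicate supports a peak when 1 of its 15891 top regions shares at least 1 bp with it. Sequence came from the mm9 genome. Coordinates of the builds were never mixed, and they are 1-based. Intervals are exact Clopper-Pearson intervals at 95%. No p-value was computed. Assignment and overlap were tested on simulated data. The members and lists were chosen with earlier results of these data known. Every member is named, and sequences are shown for the member with the highest signal in each subfamily, up to 8. Values of some single genes outside the list of 42 are not reported here. Alternatives covered peak set, window, replicate, overlap, signal, build and motif window. Python 3.11.15, NumPy 2.4.6, pandas 2.3.3 and SciPy 1.17.1 were used.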

Additional observations from a re-analysis of the deposited data

How the results depend on the processing

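No paired analysis was possible because there is 1 group. Of the 42 genes, 28.6% had a peak with the gene body or 10 kb, 81.0% with 100 kb, 38.1% with peaks at or above the median signal and 23.8% with mm9 peaks of q at most 0.001. The same settings gave 25.4%, 67.2%, 30.8% and 18% of all protein-coding genes. All genes gave 33.7% with the conservative set, 44.8% without gene bodies, 27.9% by nearest TSS and 45.2% with mm9 series-level peaks. Leaving out a replicate gave 57.1% of homeobox genes each time, and 48.5% to 54.0% of all genes. Support by both replicates was 79.2% with 50000 top regions each, and 56.2% when summits had to lie within 100 bp. It was 93.8% for the conservative set, which comes from the same replicates, so this support is not independent of it. With overlapping peaks counted once it was 60.9%. That alternative was chosen after seeing the data, as was that of RefSeq promoter starts (59.5% of homeobox genes). The median distance was 41.9 kb with a 100 kb window, and 22.1 to 26.9 kb with a replicate left out. The TAAT core was in 71.9% of windows with 100 bp to each side and 69.2% of peaks with q at most 0.001, and in 37.3% to 47.8% of replicate lists. These lists gave 33.9% to 47.8% for the SOX site, 0 to 6.78% for the PBX-type site, 10.2% to 21.7% for the MEIS and TGIF site, 6.78% to 21.7% for the nuclear receptor site, 8.47% to 17.4% for the NANOG-type site and 3.39% to 4.35% for the octamer. Why these values moved was not tested beyond what a wider window, a shorter list or fewer peaks gives by construction. Motif shares over all peaks were not computed under these settings. Support by both replicates and median distance are also given without values over all peaks, so none of these values has a background. Of the subfamily counts under these settings, 84 stayed within 1.5 times the value reported and 36 did not. With groups of 1 to 6 genes, no subfamily can be set apart from another.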
